A study of Mus musculus with 2 samples.

Results

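*Cyba*, *Cybb*, *Ncf1*, *Ncf4* and *Rac2* encode subunits of the phagocyte NADPH oxidase. These 5 genes were taken by symbol from the 27998 genes of a single-cell RNA-seq count matrix of mouse *MLL-AF9* acute myeloid leukemia, and each symbol matched 1 row. The study set out to learn what happens to transcription in this leukemia when the histone acetyltransferase gene *Kat2a* is lost. Donor mice of both groups carried *Kat2a* Flox/Flox alleles and received pIpC, which induces Mx1-Cre where the transgene is present. Donors labelled WT were Mx1-Cre -/- and donors labelled KO were Mx1-Cre+/-. Their lineage-depleted bone marrow, collected 4 to 6 weeks after treatment, was given the *MLL-AF9* fusion by retrovirus with a YFP reporter and was transplanted into lethally irradiated recipients, whose age the labels do not give. Frozen marrow samples of terminal leukemias, 5 labelled WT and 4 labelled KO, were pooled by genotype, and live YFP-positive singlets were sorted for a 10x Genomics 3′ library per genotype with a target of 6000 cells. The leukemias inside a pool are not told apart in the files.

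The phagocyte NADPH oxidase moves electrons from NADPH across a membrane to oxygen and so makes superoxide, the start of the oxidative burst with which neutrophils and macrophages kill microbes. In resting cells the enzyme is in pieces. *Cybb* encodes the catalytic chain of the membrane-bound flavocytochrome and *Cyba* the small chain that stabilises it, while *Ncf1* and *Ncf4* encode cytosolic subunits that join the membrane part when the cell is stimulated, together with the GTPase encoded by *Rac2*. Inherited loss of the flavocytochrome or of a cytosolic subunit causes chronic granulomatous disease, in which phagocytes cannot mount the burst. The transcripts are known to accumulate as myeloid cells mature.

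The upstream sequences of *Cyba*, *Cybb* and *Ncf1* are shown, the 3 of the 5 genes for which a promoter window was found. They are RefSeq promoter windows (GRCm38.p6), cut to the 150 bases that precede the start RefSeq gives and written 5′ to 3′ on the strand of the gene, which is the minus strand for each of the 3. Capitals mark matches on either strand to CCAAT or to the GC box, whose letters are GGGCGG. The windows are chr8:122432941-122433090 for *Cyba*, chrX:9469325-9469474 for *Cybb* and chr5:134229626-134229775 for *Ncf1*. The *Cybb* window borders the GENCODE transcript Cybb-201 (9435252 to 9469324) and lies inside the span of the gene, which a longer transcript extends upstream.
Cyba: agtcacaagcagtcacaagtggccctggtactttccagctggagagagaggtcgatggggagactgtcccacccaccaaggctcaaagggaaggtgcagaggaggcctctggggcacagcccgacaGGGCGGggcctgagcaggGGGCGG
Cybb: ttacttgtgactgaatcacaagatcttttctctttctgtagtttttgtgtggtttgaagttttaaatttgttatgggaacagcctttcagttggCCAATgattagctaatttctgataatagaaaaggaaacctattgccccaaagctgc
Ncf1: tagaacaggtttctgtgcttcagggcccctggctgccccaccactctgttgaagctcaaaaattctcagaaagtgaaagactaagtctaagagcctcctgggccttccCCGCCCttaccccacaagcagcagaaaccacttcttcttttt
The *Cyba* sequence carried GGGCGG at 24 to 19 and at 6 to 1 bases before the RefSeq start. The *Ncf1* sequence carried the reverse complement CCGCCC at 42 to 37 bases before the start, and the *Cybb* sequence carried CCAAT at 56 to 52 bases. None of the 3 windows held GAGGAA or its reverse complement TTCCTC, a core searched for as a PU.1 box, in the 250 bases before the start. Other spellings of that box were not searched for, so this does not show that the windows lack one. These letters are common, since GGGCGG was found on either strand in 32.7% of 32851 promoter windows of 250 bases, CCAAT in 33.8% and GAGGAA in 23.3%. The 250 bases before the RefSeq start of *Cybb* had a G and C content of 34%, against 60% for *Cyba* and 54.4% for *Ncf1*. A match describes the letters and does not show that a factor binds.

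In GENCODE M21 (GRCm38), *Cyba* lies on chromosome 8 (122424776 to 122432930, minus strand), *Cybb* on chromosome X (9435252 to 9487771, minus strand) and *Ncf1* on chromosome 5 (134220053 to 134229625, minus strand). *Ncf4* (78244801 to 78262580, plus strand) and *Rac2* (78559167 to 78572783, minus strand) are both on chromosome 15. The last exon, where 3′ libraries collect most reads, is free of other annotated genes for *Cybb*, *Ncf4* and *Rac2*. That of *Cyba* overlaps the gene model Gm20388 and that of *Ncf1* overlaps Gtf2ird2, both on the opposite strand.

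There was 1 library per genotype, so no difference between genotypes has a replicate check and no test between them was made. Intervals are exact 95% Poisson intervals for UMI sums (UMIs are molecular identifiers, each standing for 1 captured transcript), exact conditional intervals for ratios of such sums and exact Clopper-Pearson intervals for shares of cells, and they cover counting error only. Levels are CPM, the UMIs of a gene per 1000000 UMIs of the same cells, and as 3′ counts they do not depend on transcript length. Cells with 500 or more genes were kept, which left 3866 cells and 11669427 UMIs in the WT-labelled library and 3545 cells and 7920256 UMIs in the KO-labelled library, with medians of 2588.5 and 1884 UMIs per cell. The targeted gene went against the assigned genotypes. *Kat2a* was at 12.2 CPM in the WT-labelled library and 95.8 CPM in the KO-labelled library (log2 ratio 2.98, 2.72 to 3.25). The study describes a rearranged transcript that keeps the 3′ end after excision, so a 3′ tag does not check the deletion here. The labels do not say which barcode number is which genotype, and the assignment follows the analysis code of the study. Directions between the libraries rest on that assignment and would reverse if it were the other way round. Whether it is was not tested. Of the cell barcodes, 28 occurred in both libraries, 19 of them among kept cells. The granulocyte markers *Camp*, *Ngp*, *Ltf* and 9 others made up 8.21% of UMIs in the WT-labelled library and 7.95% in the KO-labelled library, whereas 3 T cell markers summed to 0.943 and 0.505 CPM.

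The 5 subunit genes were expressed in both libraries at very unequal levels. *Cyba* was the most abundant, at 3119 CPM in the WT-labelled library (3087 to 3152) and 2678 CPM in the KO-labelled library (2642 to 2714). Its partner in the flavocytochrome, *Cybb*, was at 311 CPM (301 to 321) and 187 CPM (178 to 197). The small chain of the heterodimer was therefore counted at a much higher level than the catalytic chain in each library. Among the cytosolic subunits, *Ncf1*, the organiser that carries the others to the membrane, was at 237 CPM (228 to 246) in the WT-labelled library and 136 CPM (128 to 145) in the KO-labelled library. *Ncf4*, which binds phosphoinositides on phagosomes, was at 679 CPM (664 to 694) and 587 CPM (570 to 604). *Rac2*, the hematopoietic Rac GTPase, was at 1783 CPM (1759 to 1808) and 1931 CPM (1900 to 1961). The order *Cyba*, *Rac2*, *Ncf4*, *Cybb*, *Ncf1* was the same in both libraries, and no neighbours in it had overlapping intervals within a library.

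Relative to the WT-labelled library, *Cybb* and *Ncf1* were lower in the KO-labelled library by more than 1.5-fold, and the other 3 genes were not. *Cybb* was 1.66-fold lower (log2 ratio -0.73, -0.82 to -0.65) and *Ncf1* 1.74-fold lower (-0.80, -0.90 to -0.69). Thus 2 of 5 genes were lower by 1.5-fold or more, where 3.43% of the 2737 robust genes were and 6.98% differed by that factor in either direction (a robust gene had a UMI in 10% or more of the kept cells, and the 5 genes are among them). No member was higher by that factor, against 3.54% of robust genes. *Cyba* had a log2 ratio of -0.22 (-0.24 to -0.20) and *Ncf4* one of -0.21 (-0.26 to -0.16). *Rac2* was slightly higher in the KO-labelled library, with a log2 ratio of 0.11 (0.08 to 0.14), close to the median of robust genes of 0.07. Of robust genes, 1.42% had a lower ratio than *Ncf1*, 1.79% than *Cybb*, 18.4% than *Cyba*, 19.2% than *Ncf4* and 55.3% than *Rac2*. The median log2 ratio of the 5 genes was -0.22. Markers of cell types also differed. Of the 12 granulocyte markers 10 were robust, 3 of these were lower by 1.5-fold or more (*Lcn2* at -0.84, *Wfdc21* at -1.02 and *Mmp9* at -1.25) and none was higher by that factor. The intervals of 6 of these 10 lay below 0 and those of 4 above it, *Ngp* (0.24), *Ltf* (0.17), *Cd177* (0.14) and *Pglyrp1* (0.05). Of the 10 monocyte and macrophage markers 5 were robust and 1 was lower by that factor (*F13a1*, -0.60). None of the 5 was higher by that factor, though *Ms4a6c* was at 0.52 (0.43 to 0.60). The summed level of 6 erythroid markers was 167 CPM in the WT-labelled library, where *Car1* was at 0, and 452 CPM in the KO-labelled library. That of 4 megakaryocyte markers was 20.8 and 135 CPM. These sums rest on few cells. *Hba-a1* had 474 UMIs in 18 cells of the WT-labelled library, 456 of them in 1 cell. In the KO-labelled library it had 921 UMIs in 39 cells, 488 of them in 1 cell. *Pf4* had a UMI in 0.553% of kept cells, and *Gp9*, the megakaryocyte marker found most widely, in 2.83%. The part of these markers in the result was not tested. Median depth per cell also differed between the libraries, and in 2772 cells per library matched on total UMIs the log2 ratio was -1.07 for *Cybb* (-1.17 to -0.97) and -0.92 for *Ncf1* (-1.04 to -0.81). The 2 chains of the flavocytochrome thus differed from each other in the size of their ratio, and so did the 2 cytosolic subunits among the members.

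**Figure D1:**
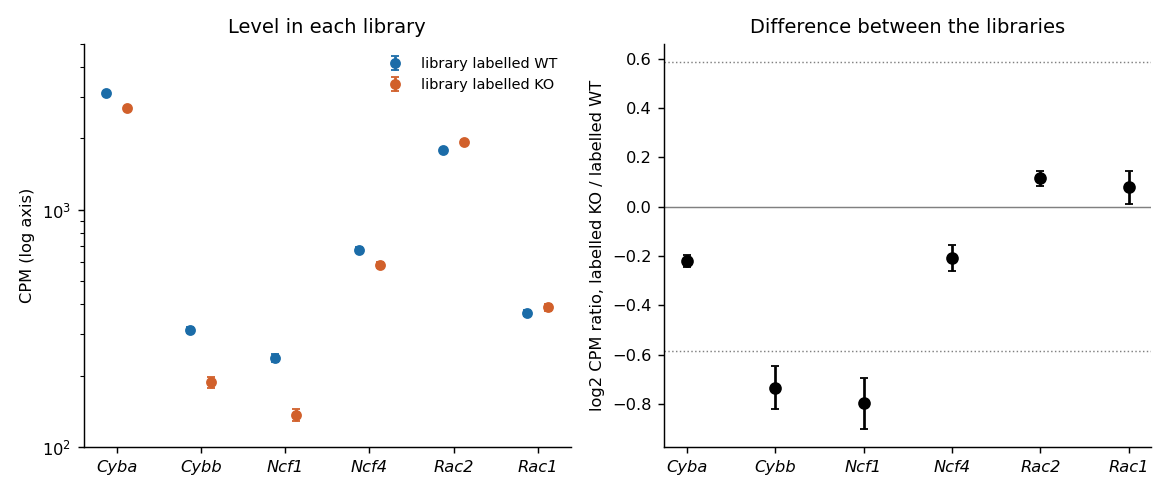
Left, level of the 5 genes and of the related *Rac1* in each library in CPM on a log axis, with exact 95% Poisson intervals. Right, log2 ratio of the KO-labelled library over the WT-labelled library with its exact interval, dotted lines at 1.5-fold; *Cybb* (-0.73) and *Ncf1* (-0.80) lie beyond the lower line and the other genes between the lines.

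At the level of single cells and with depth made equal, most cells held *Cyba* and *Rac2*, whereas *Cybb* and *Ncf1* were found in a minority. At their own depth, 99.1% of kept cells in the WT-labelled library (98.8 to 99.4%) and 95.3% in the KO-labelled library (94.5 to 96.0%) had a *Cyba* UMI. For *Cybb* these shares were 49.9% and 27.4%, for *Ncf1* 44.3% and 22.1%, for *Ncf4* 75.3% and 57.4%, and for *Rac2* 95.03% and 91.34%. Because the cells of the KO-labelled library were shallower, each cell was also thinned to 1000 UMIs, which left out 66 cells of the WT-labelled library and 194 of the KO-labelled library. After thinning, *Cybb* was detected in 27.7% of cells of the WT-labelled library (26.3 to 29.1%) and 17.1% of the KO-labelled library (15.8 to 18.4%). The shares for *Ncf1* were 21.7% (20.4 to 23.0%) and 12.2% (11.1 to 13.3%). *Ncf4* stood at 47.7% and 39.7%, *Cyba* at 93.2% and 88.2%, and *Rac2* at 80.3% and 80.5%. After thinning the *Rac2* shares differed by less than counting error, whereas the intervals of the other 4 genes did not overlap between the libraries. Such non-overlap was not counted over all robust genes, so it does not by itself set the subunit genes apart. A cell type that lacks these genes, from which to read the share given by free RNA, could not be used, since only 1 cell of the WT-labelled library and 2 of the KO-labelled library had 10% or more hemoglobin UMIs.

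Cells were then ranked by granulocyte marker content, the share of their UMIs in 12 genes of secondary and later granules and of mature granulocytes, and divided into 10 bins of equal size over both libraries together. None of the 5 genes is among these markers. The content ran from at most 0.203% of UMIs in the lowest bin to between 25.4% and 46.0% in the highest. Levels of the 5 genes were higher in the highest bin than in the lowest in both libraries, while the median robust gene was lower there (log2 -0.76 in the WT-labelled library and -0.64 in the KO-labelled library). These CPM use totals that include the markers, and their large share in the highest bin by itself lowers the CPM of all other genes there. Within each library these patterns do not rest on the genotype labels.

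*Cyba* went from 2144 to 4222 CPM in the WT-labelled library, 1.97-fold, and from 1953 to 3721 CPM in the KO-labelled library, 1.90-fold. *Cybb* went from 181 CPM in the lowest bin to 634 CPM in the highest in the WT-labelled library, 3.51-fold, and from 106 to 308 CPM in the KO-labelled library, 2.91-fold. The catalytic chain therefore had a larger fold between the end bins than its partner. *Ncf1* went from 138 to 410 CPM (2.98-fold) in the WT-labelled library and from 77.6 to 224 CPM (2.89-fold) in the KO-labelled library. *Ncf4* went from 337 to 1068 CPM (3.17-fold) and from 279 to 854 CPM (3.06-fold). *Rac2* went from 1300 to 2130 CPM (1.64-fold) and from 1322 to 2201 CPM (1.67-fold). Each of the 5 genes was thus at least 1.5-fold higher in the highest bin in both libraries, where 9.21% of robust genes were in the WT-labelled library and 9.72% in the KO-labelled library. Conversely, 57.9% and 52.9% of robust genes were lower by that factor, with totals that include the markers.

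The shape differed among the genes. *Cyba* and *Ncf4* were higher in each bin than in the one before it in both libraries. *Rac2* peaked before the end, at 2346 CPM in bin 9 of the WT-labelled library and at 2430 CPM in bin 8 of the KO-labelled library. *Cybb* was not monotone, with a local high of 335 CPM in bin 4 of the WT-labelled library (300 to 373 CPM) and a low of 212 CPM in bin 6 (187 to 239 CPM). The same bins of the KO-labelled library read 162 and 176 CPM. *Rac1*, the widely expressed Rac, was lower in the highest bin in both, at 0.75-fold and 0.64-fold.

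**Figure D2:**
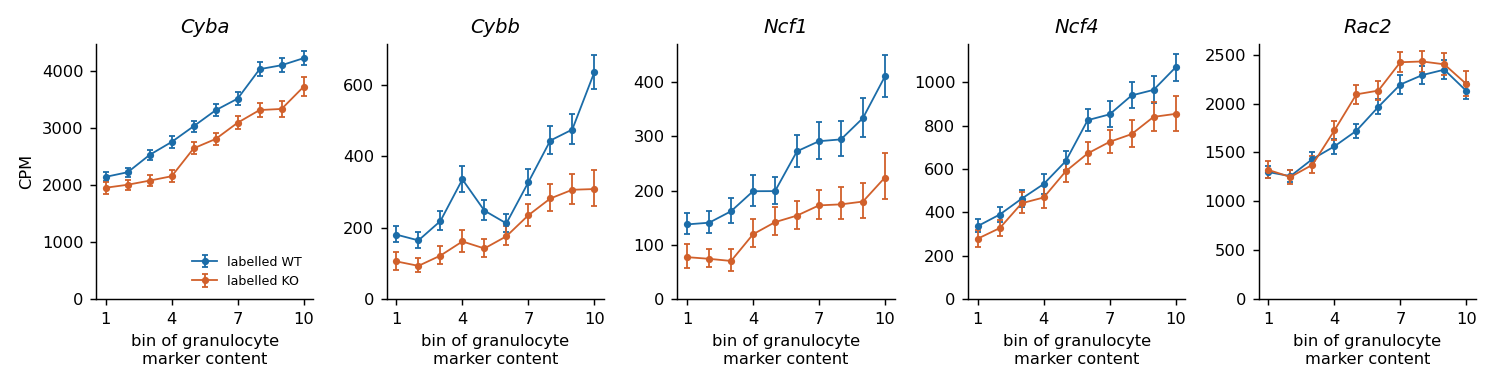
Level of each gene (CPM, linear axis from 0) in 10 equal bins of cells ranked by granulocyte marker content, by library, with exact 95% Poisson intervals. All 5 genes are higher in bin 10 than in bin 1, *Cybb* has a separate high in bin 4 of the WT-labelled library (335 CPM), and *Rac2* peaks in bins 8 and 9.

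Within bins of equal granulocyte content, *Cyba*, *Cybb*, *Ncf1* and *Ncf4* were lower in the KO-labelled library in every bin, by amounts that varied from bin to bin. *Cybb* was lower in the KO-labelled library in 10 of 10 bins, with log2 ratios from -1.05 to -0.27 and an interval below 0 in 9 bins. *Ncf1* was lower in 10 of 10 bins, from -1.20 to -0.49, with every interval below 0. *Cyba* was lower in 10 of 10 bins, from -0.35 to -0.13. *Ncf4* was lower in 10 of 10 bins, from -0.32 to -0.07, with an interval below 0 in 7. *Rac2* was lower in 2 of 10 bins, and in 4 bins its interval was above 0. With the bins weighted equally the log2 ratios were -0.75 for *Cybb*, -0.81 for *Ncf1*, -0.23 for *Cyba*, -0.23 for *Ncf4* and 0.09 for *Rac2*, close to the ratios over whole libraries.

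Against primary granule content (*Mpo*, *Elane*, *Prtn3*, *Ctsg* and *Ms4a3*, genes of the promyelocyte stage), the genes ran the other way. *Cybb* was at 641 CPM in the lowest bin and 144 CPM in the highest of the WT-labelled library (log2 -2.16, -2.38 to -1.94), and at 281 and 96.8 CPM in the KO-labelled library (-1.54, -1.93 to -1.15). *Cyba*, *Ncf1* and *Ncf4* were also lower in the highest bin in both libraries, with log2 ratios from -1.16 to -0.60. *Rac2* was lower in the WT-labelled library (-0.54, -0.63 to -0.46) and showed no difference beyond counting error in the KO-labelled library (0.040, -0.07 to 0.15). Mean granulocyte content was 18.0% in the lowest and 1.74% in the highest of these bins in the WT-labelled library, and 11.3% and 2.37% in the KO-labelled library. Median depth was 1696 and 4395 UMIs in the WT-labelled library, and 1399.5 and 2495 in the KO-labelled library. This axis is therefore not separate from granulocyte content.

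Along monocyte and macrophage marker content *Cybb* was not monotone. It fell to 207 CPM in bin 7 of the WT-labelled library and 138 CPM in bin 7 of the KO-labelled library, but was higher in the highest bin than in the lowest, 504 against 411 CPM in the WT-labelled library (log2 0.29, 0.09 to 0.50) and 284 against 194 CPM in the KO-labelled library (0.55, 0.20 to 0.90). *Ncf1* was lower at the monocyte end, 139 against 279 CPM (-1.004, -1.33 to -0.68) and 81.8 against 187 CPM (-1.19, -1.75 to -0.67). *Cyba*, *Ncf4* and *Rac2* were lower there too, with log2 ratios between -0.81 and -0.31. Cells in the lowest monocyte bins also had the highest granulocyte content, so these 2 axes are not separate.

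K-means clustering of the cells without the 5 genes gave 12 clusters, numbered from the largest to the smallest and named only where listed markers allowed it. Cluster 2 (791 cells, led by *Ltf*, *Ly6g* and *Plbd1*) was granulocyte-like, and cluster 6 (638 cells, led by *Sirpb1c*, *Clec4a1* and *Sirpb1b*) monocyte and macrophage-like. Cluster 3 (693 cells, led by *Mcpt8*, *Fabp5* and *Oaf*) stayed unnamed. With UMIs of both libraries summed, *Cyba* ran from 1791 CPM in cluster 3 to 4424 CPM in cluster 2, 2.47-fold. *Ncf4* ran from 269 to 1167 CPM (4.34-fold) and *Rac2* from 1160 to 2506 CPM (2.16-fold) between the same clusters.

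*Cybb* and *Ncf1* had their own patterns. *Cybb* spanned the widest range of the 5, 10.9-fold, from 63.7 CPM in cluster 3 (55.4 to 72.9) to 696 CPM in the monocyte and macrophage-like cluster 6 (644 to 751). Its level in the granulocyte-like cluster 2, 666 CPM (625 to 709), did not differ from that of cluster 6 beyond counting error. *Ncf1* is given by library, since the clusters hold unequal shares of the libraries and *Ncf1* differed between them. In the WT-labelled library it was highest in cluster 2 at 459 CPM (420 to 501), lowest in cluster 3 at 115 CPM, and stood at 166 CPM (137 to 198) in cluster 6, against a median over the clusters of 205 CPM. In the KO-labelled library it was highest in cluster 11 at 295 CPM (235 to 366), at 248 CPM (199 to 305) in cluster 2, lowest in cluster 10 at 56.5 CPM (32.9 to 90.5), and at 114 CPM (74.9 to 165) in cluster 6, against a median of 125 CPM. Cluster 6 was thus among the highest for the catalytic chain and below the median for the organiser in each library, though in the KO-labelled library the interval of the organiser included that median. With UMIs of both libraries summed, between 6 and 8 of the 11 neighbouring pairs in the order of the 12 levels had overlapping intervals for each gene. For *Ncf1* by library these were 8 of 11 pairs in the WT-labelled library and 10 of 11 in the KO-labelled library. Single steps in these orders are therefore mostly within counting error.

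Within clusters the lower level in the KO-labelled library was again seen for *Cyba*, *Cybb* and *Ncf1* in 12 of 12 clusters, with an interval below 0 in 8 clusters for *Cyba* and in 10 each for *Cybb* and *Ncf1*. The log2 ratios ran from -1.15 to -0.07 for *Cybb*, from -1.65 to -0.24 for *Ncf1* and from -0.29 to -0.01 for *Cyba*. *Ncf4* was lower in 7 of the 12, with an interval below 0 in 4, and *Rac2* in 4, with no interval below 0 and 5 above. Cluster 12 was mostly of 1 library, with 46 cells labelled WT and 346 labelled KO, and its values in the WT-labelled library rest on 22 *Cybb* and 15 *Ncf1* UMIs.

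**Figure D3:**
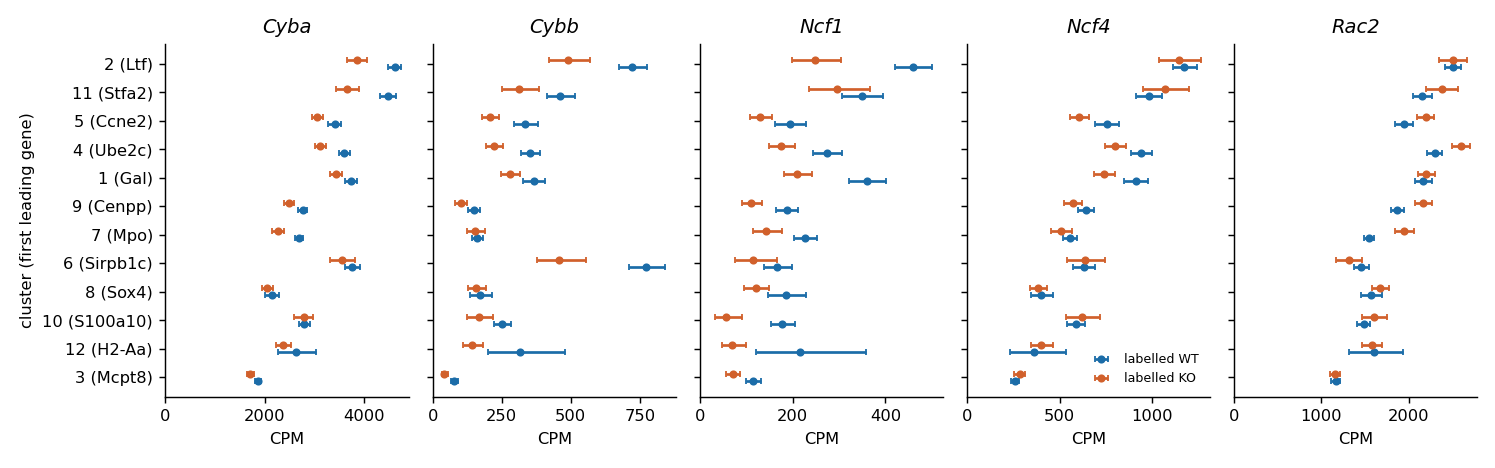
Level of each gene in CPM (horizontal axis from 0) in 12 k-means clusters, ordered from the lowest granulocyte marker content at the bottom to the highest at the top, by library, with exact 95% Poisson intervals. *Cybb* is high in both cluster 6 (696 CPM over both libraries) and cluster 2 (666 CPM), while *Ncf1* is at 459 and 248 CPM in cluster 2 of the WT-labelled and KO-labelled libraries and at 166 and 114 CPM in cluster 6.

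The genes most like each member across 23 cluster-by-library groups of at least 50 cells, by Pearson's r of log2 CPM, were myeloid genes in several cases. These groups share 2 libraries and neighbouring cells, so r is a description. *Slfn2* (r = 0.95) and *Cd33*, a sialic acid receptor (0.92), were among the genes most like *Cybb*. *Cyba* was most like *Cd300lf* (0.94), *Mcemp1* (0.94) and *Vsir* (0.93). *Ncf1* was most like *Pygl*, the liver form of glycogen phosphorylase (0.93), *Dgat1* (0.92) and *Sp140* (0.90). *Rac2* was most like *Pglyrp1*, a granule peptidoglycan-binding protein that is also one of the granulocyte markers (0.92), *Msra* (0.92) and *Triobp* (0.92). For *Ncf4* the nearest of the 2737 robust genes was another member, *Cyba* (0.93), followed by *Mcemp1* (0.92) and *Cd300lf* (0.91). Among the 5 genes themselves r ran from 0.48 for *Cybb* with *Rac2* to 0.93 for *Cyba* with *Ncf4*.

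How many of the 5 genes a cell showed was counted after thinning to 1000 UMIs. Cells of the WT-labelled library had 2.71 of the genes on average and those of the KO-labelled library 2.38. All 5 were detected in 2.89% of cells in the WT-labelled library (2.39 to 3.48%, 110 of 3800 cells) and in 1.07% in the KO-labelled library (0.754 to 1.48%, 36 of 3351 cells). None was detected in 0.974% and 1.61%. Along granulocyte content the mean number went from 2.19 in the lowest bin to 3.19 in the highest in the WT-labelled library, and from 1.91 to 2.74 in the KO-labelled library. For a given pair of genes, the share of cells with one was 1.02 to 1.42 times as high among cells with the other in the WT-labelled library and 1.03 to 1.60 times in the KO-labelled library, and Pearson's r between 2 genes across thinned cells was at most 0.14, which is weak in counts this sparse.

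**Figure D4:**
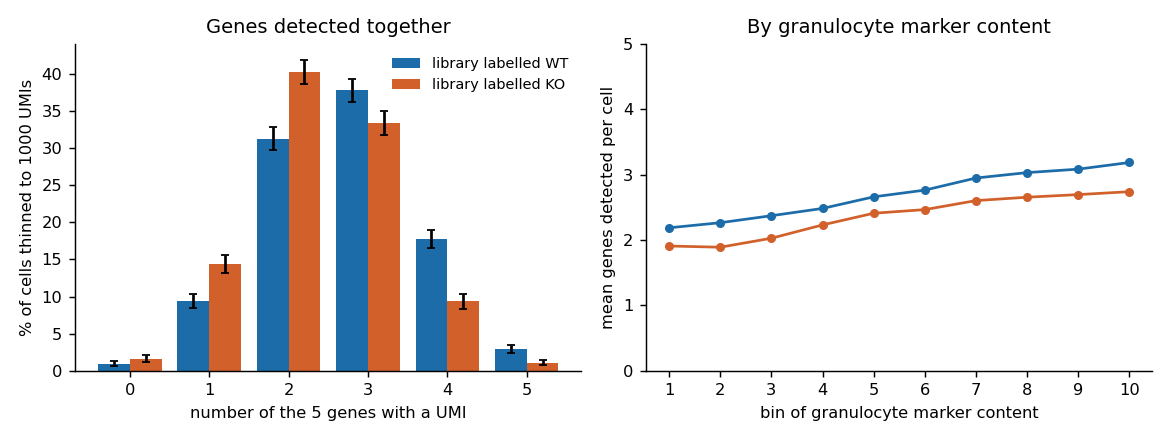
Left, share of cells thinned to 1000 UMIs (bars from 0, with exact 95% binomial intervals) by how many of the 5 genes had a UMI. Right, mean number of the 5 genes detected per thinned cell in 10 bins of granulocyte marker content, from 2.19 to 3.19 in the WT-labelled library and from 1.91 to 2.74 in the KO-labelled library.

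Variability from cell to cell, as the CV of thinned counts (their standard deviation divided by their mean), was higher in the KO-labelled library for each of the 5 genes. *Cybb* had a CV of 1.88 in the WT-labelled library and 2.49 in the KO-labelled library, and *Ncf1* one of 2.09 and 2.93. *Ncf4* had 1.32 and 1.70, *Cyba* 0.673 and 0.773, and *Rac2* 0.863 and 0.901. Counts with a lower mean have a higher CV by sampling alone, and the part of this in the differences was not tested. *Ncf1* and *Cybb*, whose means differed most, had the largest differences in CV (log2 ratios of 0.48 and 0.40). *Rac2* had a higher CV in the KO-labelled library although its thinned mean was also higher there (1982 against 1867 CPM). The variance over the mean, which is 1 for counting noise, was 1.36 in both libraries for *Cybb*. In the WT-labelled and KO-labelled libraries it was 1.54 and 1.68 for *Cyba* and 1.16 and 1.24 for *Ncf1*. It was 1.31 and 1.76 for *Ncf4* and 1.39 and 1.61 for *Rac2*. The median robust gene had CVs of 3.36 and 3.43 and variances over the mean of 1.16 and 1.27. The median log2 ratio of the CVs of robust genes was 0.02. How many robust genes had a higher CV in the KO-labelled library was not counted.

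Other genes of the oxidase pathway were read from lists. *Cybc1*, the chaperone needed for the flavocytochrome to mature, was at 67.9 CPM in the WT-labelled library and 49.2 CPM in the KO-labelled library (log2 -0.46, -0.64 to -0.29). *Rac1* was at 368 and 388 CPM (0.08, 0.01 to 0.14), and *Rap1a*, a GTPase found with the flavocytochrome, at 261 and 250 CPM (-0.06, -0.14 to 0.02). None of these 3 differed by 1.5-fold. The other NADPH oxidases and their partners, 9 genes that include *Nox1*, *Nox4* and *Duox1*, were near 0, with a summed level of 0.343 CPM in the WT-labelled library and 0.253 CPM in the KO-labelled library. The phagocyte enzyme was thus the one NADPH oxidase of the list with a readable transcript level.

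Of 16 upstream signals and regulators, 10 were robust, none differed by 1.5-fold, and all 10 had log2 ratios below 0, as had 39.8% of robust genes. The median of the 10 was -0.12, and for 4 of them the interval included 0. *Fcer1g*, the signalling chain of Fc receptors, was at 1614 and 1265 CPM (-0.35, -0.39 to -0.32), and *Prkcd*, a kinase that phosphorylates the organiser subunit, at 101 and 82.4 CPM (-0.29, -0.43 to -0.15). *Arhgdib*, which holds Rac in the cytosol, was at 3833 and 3555 CPM (-0.11, -0.13 to -0.09). The supply of NADPH gave the list with the lowest median, -0.56 over 4 robust genes of 5, of which 1 was lower by 1.5-fold. That gene was *Idh1*, the cytosolic isocitrate dehydrogenase, at 83.0 and 46.3 CPM (-0.84, -1.02 to -0.67). *Pgd* (-0.58, -0.67 to -0.49) and *G6pdx* (-0.53, -0.71 to -0.36), enzymes of the oxidative pentose phosphate pathway, were just short of that limit, and *Me2*, the mitochondrial malic enzyme, was at 0.19 (0.05 to 0.34).

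Of 9 genes that remove superoxide and peroxide, 6 were robust, none differed by 1.5-fold, and 4 of the 6 ratios were above 0, close to the 60.2% of robust genes above 0, with a median of 0.03. *Gpx1*, glutathione peroxidase, was at 2535 and 2630 CPM (0.05, 0.03 to 0.08) and *Prdx1*, a peroxiredoxin, at 410 and 482 CPM (0.24, 0.17 to 0.30). Among 5 myeloid transcription factors, of which 4 were robust, *Irf8*, a factor of the monocyte lineage, was lower at 171 and 104 CPM (-0.72, -0.84 to -0.60). *Spi1*, which encodes PU.1, was at 697 and 734 CPM (0.07, 0.02 to 0.12), *Cebpe* at 529 and 506 CPM (-0.06, -0.12 to -0.01) and *Cebpb* at 1936 and 1739 CPM (-0.15, -0.19 to -0.12). The list had a median of -0.11.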

How the data were processed

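Reads of the 10x Genomics 3′ libraries were turned by the authors into UMI counts with Cell Ranger (version 1.3.1 and build mm10 in the submitters' processing notes), and the deposited matrix holds counts per gene and cell, not normalized, for 27998 genes and 8309 cells of 2 libraries. The number ending each barcode was read as the library (1 labelled KO, 2 labelled WT) following the analysis code of the study, since the labels do not give it. Cells with 500 or more genes were kept, the limit the study states, although its own set holds slightly fewer cells and robust genes and was not rebuilt exactly. UMIs were summed per library, bin or cluster and scaled to CPM. With 1 library per genotype no test was run, and differences of 1.5-fold or more were counted. Cells were thinned without replacement to 1000 UMIs for shares, CVs and co-detection. Clusters came from k-means (12 clusters, 10 starts) on 20 principal components of ln(1 + count per 10000) over 783 variable genes, without the 5 genes. Likeness was taken on log2(CPM + 1). Doublets were kept. Ties in marker content were split at random with a fixed seed. The ratio, its interval and the thinning were tested on simulated data. The members and the lists were chosen with earlier results of these data known, the PU.1 box, CCAAT and GC box after the promoter sequences had been read. Genes named beyond the 5 are mostly robust genes of the lists, with some list genes below that limit. The others are the 3 genes most like each member, the targeted gene and the 3 leading genes of the clusters described. Some results of this rule are not reported here. Positions are from GENCODE M21 and promoters from RefSeq. Promoter windows were found for 3 of 5 genes. Alternatives were other cell filters, depths, scalings, bins and clusters, with their effect in the closing section. Software was Python 3.11.15 with numpy 2.4.6, scipy 1.17.1, pandas 2.3.3, scikit-learn 1.9.0, scanpy 1.11.5 and matplotlib 3.10.9.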

Additional observations from a re-analysis of the deposited data

Results flagged for a closer look

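The 203 cells of the WT-labelled library and the 695 cells of the KO-labelled library with fewer than 500 genes took no part in the comparisons, yet each of the 5 genes was counted in them above the limit that a count of 0 allows (3 UMIs, or 13.4 CPM in the WT-labelled library and 4.51 CPM in the KO-labelled library). *Cyba* stood at 4643 CPM in such cells of the WT-labelled library and 3814 CPM in those of the KO-labelled library. *Cybb* was at 538 and 427 CPM, *Ncf1* at 533 and 164 CPM, *Ncf4* at 1161 and 794 CPM, and *Rac2* at 2133 and 2231 CPM. Each of these 10 values was above the level of the same gene in the kept cells of the same library. Along primary granule content the log2 ratio of the highest over the lowest bin of *Rac2* was -0.54 in the WT-labelled library and 0.040 in the KO-labelled library, where it did not differ from 0 beyond counting error, and the difference between the libraries was not tested.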

How the results depend on the processing

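No paired analysis was possible because each genotype had a single library. With 10 alternatives each, the ratios between the libraries of the 5 genes kept their direction, and 32 of 50 values stayed within the counting interval of the reported ratio. The other 18 log2 ratios follow. They were -0.19 for *Cyba* and -0.62 for *Cybb* with every deposited cell. They were -0.27 for *Cyba* and -0.15 for *Ncf4* with cells of 1000 or more genes. They were -0.27 for *Cyba* and -0.30 for *Ncf4* after thinning to 1000 UMIs. They were -0.29 for *Cyba*, -0.28 for *Ncf4* and 0.040 for *Rac2* scaled by the median of ratios over robust genes. They were -0.27 for *Cyba*, -0.86 for *Cybb*, -0.30 for *Ncf4* and 0.082 for *Rac2* as means of per-cell shares. They were -0.34 for *Cyba*, -1.07 for *Cybb*, -0.92 for *Ncf1*, -0.27 for *Ncf4* and 0.074 for *Rac2* in 2772 cells per library matched on total UMIs. *Cybb* and *Ncf1* were lower by 1.5-fold or more under each of the 10 alternatives. Along granulocyte content, 6 alternatives for each gene and library kept the direction, 32 of 60 values stayed within the interval, and the other 28 log2 ratios of the highest over the lowest bin follow. With 5 bins they were 1.49 for *Ncf4* and 0.80 for *Rac2* in the WT-labelled library, and 0.82 for *Cyba* in the KO-labelled library. With cells of 1000 or more genes they were 1.11 for *Ncf1* and 0.84 for *Rac2* in the WT-labelled library, and 0.71 for *Cyba*, 2.16 for *Cybb*, 2.11 for *Ncf1* and 0.95 for *Rac2* in the KO-labelled library. After thinning before binning they were 0.75 for *Cyba*, 1.33 for *Cybb*, 1.17 for *Ncf1*, 1.37 for *Ncf4* and 0.58 for *Rac2* in the WT-labelled library, and 0.60 for *Rac2* in the KO-labelled library. Without *S100a8* and *S100a9* among the markers they were 0.90 for *Cyba*, 1.28 for *Ncf1* and 1.47 for *Ncf4* in the WT-labelled library. With totals free of the granulocyte markers they were 1.51 for *Cyba*, 2.34 for *Cybb*, 2.104 for *Ncf1*, 2.19 for *Ncf4* and 1.24 for *Rac2* in the WT-labelled library, and 1.44 for *Cyba*, 2.06 for *Cybb*, 2.05 for *Ncf1*, 2.13 for *Ncf4* and 1.25 for *Rac2* in the KO-labelled library. With 16 clusters the log2 span from the lowest to the highest cluster was 1.42 for *Cyba*, 3.98 for *Cybb*, 2.31 for *Ncf4* and 1.26 for *Rac2*, against 1.305, 3.45, 2.12 and 1.11 with 12. At a limit of 2-fold, 5 robust genes were higher in the KO-labelled library and 21 lower, against 97 and 94 of 2737 at 1.5-fold. Pathway genes here were the robust ones, namely 5 of 5 members, 4 of 4 other oxidase parts and 10 of 16 upstream genes. They also included 4 of 5 genes of NADPH supply, 6 of 9 of removal and 4 of 5 transcription factors. Of these pathway genes 0 were lower at 2-fold, where 21 of 2737 robust genes were. At 1.5-fold 4 were lower (*Cybb*, *Ncf1*, *Idh1* and *Irf8*), where 3.43% of all robust genes were. With genes found in 5% or more of kept cells, 173 were higher and 228 lower by 1.5-fold. Thinned to 1500 UMIs, which left out 587 and 1119 cells, all 5 genes were detected in 7.23% of cells of the WT-labelled library and 2.93% of the KO-labelled library. Dropping the top 5% of cells by Scrublet score moved none of the ratios between the libraries or between the end bins of granulocyte content of the 5 genes outside its interval, and no other value was recomputed without them. Depth limits *Cybb* and *Ncf1* most, since single cells held a median of 0 UMIs of either.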
